A study of Homo sapiens with 6 samples.

Results

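The 10 genes described here, CCNA2, CCNB1, CCNB2, CDK1, PLK1, AURKA, AURKB, BUB1, CDC20 and TOP2A, drive or serve mitosis. They were taken as the loci of the heat shock comparison that carry these symbols, which gave 10 loci of 117001 and 10 genes of the 24177 genes in the assemblies. Cells enter mitosis when A- and B-type cyclins bind the kinase CDK1, and the polo-like and Aurora kinases then build the spindle and correct its attachments. Chromosomes separate once the spindle checkpoint, in which BUB1 acts, releases CDC20, the activator of the anaphase-promoting complex, which marks the cyclins for destruction. Transcription of these genes is periodic, highest in G2 and mitosis and low in early G1, so that in a growing line such as HEK293 their RNA is a mean over cells at all stages.

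The study asked which transcripts differ in HEK293 cells, a line derived from human embryonic kidney, shortly after heat shock. Aliquots taken at passage were heated to 45°C in a bath of water, over 30 minutes (HeatShock, n = 3) or left untreated (Control, n = 3), and the cultures had been grown at 37°C in DMEM with serum. The labels give only the time in the bath, and the text of the study places the comparison at 30 minutes after heat shock. Total RNA was depleted of ribosomal RNA, and each value is an FPKM, the density of fragments per length of transcript and per mapped depth, as Cufflinks estimated it. The labels do not say that the aliquots came from separate cultures, so p-values measure the spread between these 6 samples, which may be technical. In bulk RNA, fewer cells in mitosis and less of these RNAs in each cell cannot be told apart.

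The libraries differed in ways that the groups do not account for. Relative depth, read from the estimated coverage, spanned 1 to 2.03. Assembled fragments with a single exon and no strand numbered 45600 to 194489 in the Control libraries and 17304 to 151889 in the HeatShock libraries, with Control replicates 1 and 2 and HeatShock replicate 3 at the high end of both groups. Of the 6 genes listed for HEK293, VIM stood at 85.3 to 929 FPKM, KRT18 at 7.86 to 34.5, KRT8 at 1.77 to 16.6, NEFL at 2.45 to 13.0, NEFM at 1.44 to 8.92 and the kidney factor PAX2 at 0.32 to 4.26. Of the 9 genes listed for other cell types, PTPRC, CD3E, HBB, ALB and PECAM1 stayed under 1 FPKM in every library, while COL1A1 stood at 3.23 to 4.16 FPKM and KRT5, CDH5 and HBA1 reached 4.74, 2.81 and 2.44 FPKM in their highest library. As a check of the labels, DNAJB1, a co-chaperone of HSP70, held 7.32, 4.84 and 9.18 FPKM in the Control libraries and 121, 116 and 34.0 FPKM in the HeatShock libraries. DNAJB1 was thus above every Control value in every HeatShock library, HeatShock replicate 3 being the lowest of these. It was 1 of 3 among 8 heat shock genes whose groups did not overlap with HeatShock higher, against 3.71% of all genes tested. HSPH1 in HeatShock replicate 3, at 6.66 FPKM, lay within its Control range of 4.40 to 9.97 FPKM. These values are as deposited, with no scaling between libraries. On the scaled level given below, HeatShock replicate 3 was the highest library for both genes.

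The promoters of the genes are shown first because they carry the sequence elements for which mitotic genes are known. A CCAAT box is bound by the factor NF-Y, and the cell cycle homology region (CHR) is bound by the DREAM and MuvB complexes, which repress mitotic genes in resting cells and help to activate them in G2. RefSeq promoters (GRCh38.p14, 250 bases before to 50 after the start) were matched for 9 of the 10 genes, all except AURKA. The 120 bases before the start of 4 genes are given 5′ to 3′ on the gene's strand, with CCAAT boxes and the CHR letters TTTGAA in capitals.
CCNB1, chr5:69167030-69167149, plus strand: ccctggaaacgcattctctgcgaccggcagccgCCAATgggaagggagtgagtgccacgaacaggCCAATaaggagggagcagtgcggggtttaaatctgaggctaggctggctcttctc
CCNB2, chr15:59105026-59105145, plus strand: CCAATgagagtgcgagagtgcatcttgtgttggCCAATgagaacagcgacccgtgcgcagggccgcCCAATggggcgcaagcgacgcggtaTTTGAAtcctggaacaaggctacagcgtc
PLK1, chr16:23678769-23678888, plus strand: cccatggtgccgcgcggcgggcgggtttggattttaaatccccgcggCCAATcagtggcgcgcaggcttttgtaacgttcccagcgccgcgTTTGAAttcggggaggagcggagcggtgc
CDC20, chr1:43358861-43358980, plus strand: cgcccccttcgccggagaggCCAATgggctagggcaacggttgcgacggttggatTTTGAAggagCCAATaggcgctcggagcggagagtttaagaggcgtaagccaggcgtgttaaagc

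In CCNB2 and in PLK1 the CHR began 29 bases before the start, with CCAAT boxes upstream of it beginning 54 and 73 bases before the start at the nearest. CDC20 had its CHR at 65 bases, between CCAAT boxes at 100 and 55 bases, and CCNB1 had 2 CCAAT boxes, at 87 and 55 bases, and no TTTGAA in the window. Over the full windows and on both strands, CCAAT was found in 9 of the 9 promoters, against 35.7% of 27305 RefSeq promoters. TTTGAA was found in 5 of the 9 against 15.4%, and its variant TTCGAA in 1, that of BUB1, against 1.5%. A CHR of either spelling together with a CCAAT box was found in 6 of the 9, against 6.6% of all promoters. These are matches of letters in a window and not measured binding.

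The question put to the 10 genes was whether their RNA differed between the groups. As deposited, 9 of the 10, all but CDC20, had a higher mean FPKM in the HeatShock libraries, and in none did the difference pass the test against the spread between libraries. Once the length of the assembled pieces and the scale of each library were taken into account, the means of both groups lay close together for every one of the 10. The values behind both statements follow, by the role of the gene, with loci in hg19.

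The cyclins come first. CCNA2 (chr4:122737599-122745088, minus strand, 8 exons), whose protein acts in S phase and on entry into mitosis, held 8.25, 3.18 and 9.42 FPKM in Control replicates 1 to 3 and 19.2, 21.4 and 4.17 FPKM in HeatShock replicates 1 to 3. CCNB1 (chr5:68462837-68474070, plus strand, 9 exons), the main cyclin of mitotic entry, held 16.6, 7.41 and 13.0 FPKM against 32.4, 35.0 and 15.2 FPKM. CCNB2 (chr15:59397284-59417244, plus strand, 9 exons), its relative at the Golgi, held 11.7, 8.86 and 10.6 FPKM against 22.2, 29.9 and 6.31 FPKM. For all 3 cyclins HeatShock replicates 1 and 2 lay above every Control library, while HeatShock replicate 3 lay within the Control range or, for CCNB2, below it, so the groups overlapped. On the log2(FPKM + 1) scale, which understates the change of low values, the differences between HeatShock and Control were 0.85 ± 0.753 (SE) for CCNA2, 1.08 ± 0.762 for CCNB1 and 0.62 ± 0.759 for CCNB2. The adjusted p-values from limma were 0.710, 0.710 and 0.711.

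Among the kinases, CDK1 (chr10:62538089-62554610, plus strand, 4 annotated transcripts), the catalytic partner of these cyclins, held 14.4, 6.70 and 16.2 FPKM in the Control libraries and 28.8, 37.0 and 7.69 FPKM in the HeatShock libraries. It repeated the order seen for the cyclins, with HeatShock replicate 3 between Control replicates 1 and 2. PLK1 (chr16:23690201-23701688, plus strand, 10 exons), which promotes mitotic entry and centrosome maturation, held 12.1, 5.40 and 15.0 FPKM against 55.9, 23.6 and 14.3 FPKM. AURKA (chr20:54944445-54967351, minus strand, 6 annotated transcripts), the Aurora kinase of the centrosomes and spindle poles, held 22.5, 7.64 and 15.6 FPKM against 28.4, 31.3 and 10.5 FPKM. Both genes overlapped between the groups, and in PLK1 a single library, HeatShock replicate 1, stood far above the rest. AURKB (chr17:8108049-8113944, minus strand, 2 annotated transcripts), the Aurora kinase of the chromosomal passenger complex, held 31.4, 14.4 and 98.2 FPKM against 231, 77.9 and 37.5 FPKM. BUB1 (chr2:111395409-111435684, minus strand, 25 exons), a kinase of the spindle checkpoint, held 6.04, 2.30 and 6.47 FPKM against 25.0, 12.8 and 6.76 FPKM. AURKB varied most in absolute terms and overlapped widely, whereas every HeatShock value of BUB1 lay above every Control value, the closest pair being HeatShock replicate 3 and Control replicate 3. The log2 differences were 0.76 ± 0.812 (SE) for CDK1, 1.33 ± 0.801 for PLK1, 0.57 ± 0.794 for AURKA, 1.28 ± 1.03 for AURKB and 1.33 ± 0.683 for BUB1, with adjusted p-values from limma of 0.710 to 0.728.

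The last of the 10 act at anaphase and on the DNA itself. CDC20 (chr1:43824626-43828873, plus strand, 11 exons) held 28.2, 5.42 and 46.5 FPKM in the Control libraries and 28.1, 32.1 and 9.91 FPKM in the HeatShock libraries, so that the highest library was a Control. Its mean was 26.7 ± 20.6 FPKM (SD, n = 3) in Control and 23.4 ± 11.8 FPKM (SD, n = 3) in HeatShock. On the log2 scale CDC20 differed by 0.078 ± 0.924 (SE), with an adjusted p of 0.962 from limma. TOP2A (chr17:38544773-38574202, minus strand, 35 exons), the topoisomerase that untangles sister chromatids, held 9.87, 11.3 and 9.63 FPKM against 23.5, 26.6 and 12.8 FPKM. Its Control libraries lay close together and every HeatShock library lay above them, yet with the spread pooled over genes the difference of 0.91 ± 0.705 (SE) had an adjusted p of 0.710 from limma.

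**Figure D1:**
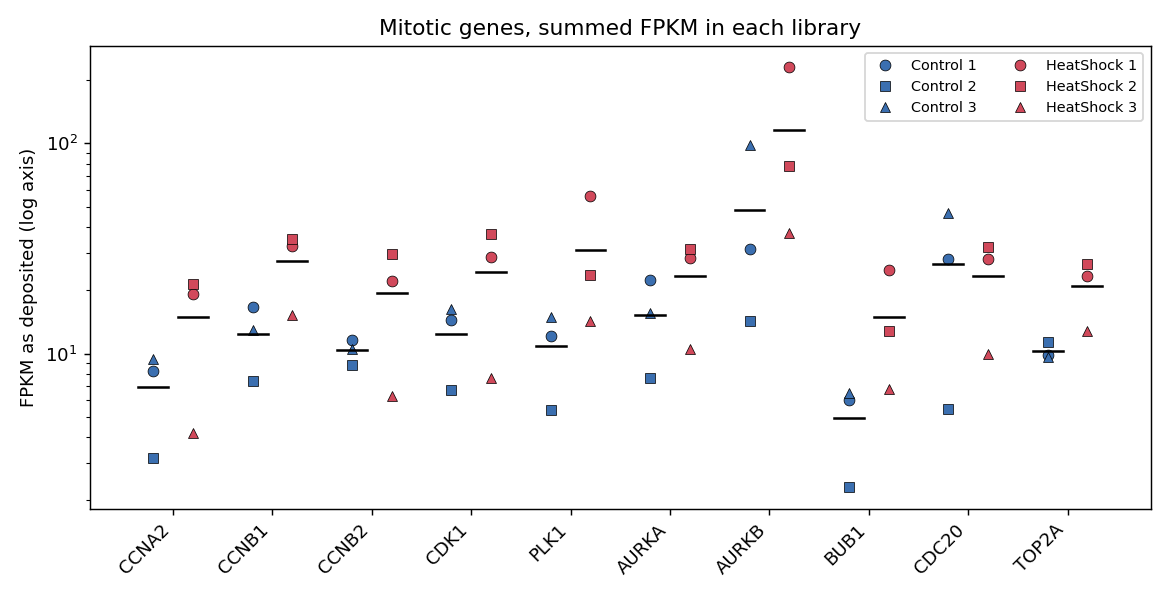
FPKM of each mitotic gene as deposited, summed over its transcripts, on a log axis, with 1 point for each library and a bar at the group mean. HeatShock replicate 3 lies among the Control libraries for most genes, and AURKB spans 14.4 to 231 FPKM.

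By the limma fit over 13027 genes, with a call at an adjusted p under 0.05 and a change above 2-fold, 0 of the 10 genes were called, against 0.023% of all genes tested (3 genes, 0.0154% called higher and 0.00768% called lower). The 3 genes, named after their values were seen, were the small RNA genes SNAR-E and SCARNA11, higher in HeatShock, and SNORA30, lower. At an unadjusted p under 0.05 the count was 0 of 10, against 3.69% of all genes. The groups did not overlap, with HeatShock higher, for 2 of the 10 (BUB1 and TOP2A), against 3.71% of all genes, and with HeatShock lower for 0 of the 10, against 2.26%. The median log2 difference over the 10 genes was 0.88 beside 0.45 over all genes tested. All 10 lay above 0 on this scale, whereas 9 did with median-of-ratios scaling, 7 after rescaling to TPM and 6 with a common factor taken from abundant genes. The 95% interval of the difference included 0 for 10 of the 10 genes and lay within a 2-fold change in either direction for 0 of the 10, so a change of 2-fold could not be detected or set aside at this spread. Within a gene, the highest library was 2.76 to 16.1 times the lowest.

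The spread was smaller without HeatShock replicate 3. Without HeatShock replicate 3, 7 of the 10 genes were higher in HeatShock at an unadjusted p under 0.05 (all but AURKA, AURKB and CDC20), but so were 39.5% of all genes, and the lowest adjusted p of a mitotic gene from limma was 0.0793. The median log2 difference over the 10 was then 1.43. With the common factor and without that library, the median was -0.090 and 4 of the 10 lay above 0.

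The libraries differed in which transcripts had been listed. The FPKM of a gene was summed over its annotated transcripts and over those that Cufflinks had assembled and grouped with it. For the 10 genes the assembled ones numbered 6, 9 and 9 in the Control libraries and 6, 4 and 14 in the HeatShock libraries, 48 in all. Of these, 45 reached the annotated 3′ end, and 23 were shorter than 70% of the annotated transcript. They carried 38.2%, 47.4% and 77.5% of the summed FPKM of the 10 genes in the Control libraries and 66.2%, 12.3% and 81.0% in the HeatShock libraries. HeatShock replicate 2 thus rested mostly on the annotated transcripts, and HeatShock replicate 3 mostly on assembled ones.

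Since FPKM is a density per length, the same fragments give a higher FPKM when placed on a short piece. In HeatShock replicate 1, all 231 FPKM of AURKB (Cufflinks interval 216 to 246) stood on a piece of 2 exons and 555 bases at the 3′ end, with both annotated transcripts listed at 0. The same was true of Control replicate 3, where a piece of 561 bases held 98.2 FPKM (87.3 to 109). These were the highest AURKB libraries of both groups. For PLK1, a piece of 3 exons and 940 bases held 50.7 FPKM, or 90.8% of the gene, in HeatShock replicate 1, its highest library. The highest CDC20 library, Control replicate 3, had 40.1 FPKM on 595 bases, and the highest BUB1 library, HeatShock replicate 1, had 12.9 FPKM on 945 bases. In AURKA a single exon of 1023 bases held 20.0 FPKM, or 89.1% of the gene, in Control replicate 1. TOP2A had 11.0 FPKM on 1716 bases of its 5753 in HeatShock replicate 3 and 7.86 FPKM on 1814 bases in Control replicate 2. In these libraries the FPKM of the gene thus lay mainly on short pieces from its 3′ end, though less so for BUB1. Its 3′ piece in HeatShock replicate 1 held 51.5% of the gene, and a piece of 1579 bases at the 5′ end held 25.9%. In HeatShock replicate 3, a piece of 572 bases at the 5′ end held 43.4% of BUB1.

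**Figure D2:**
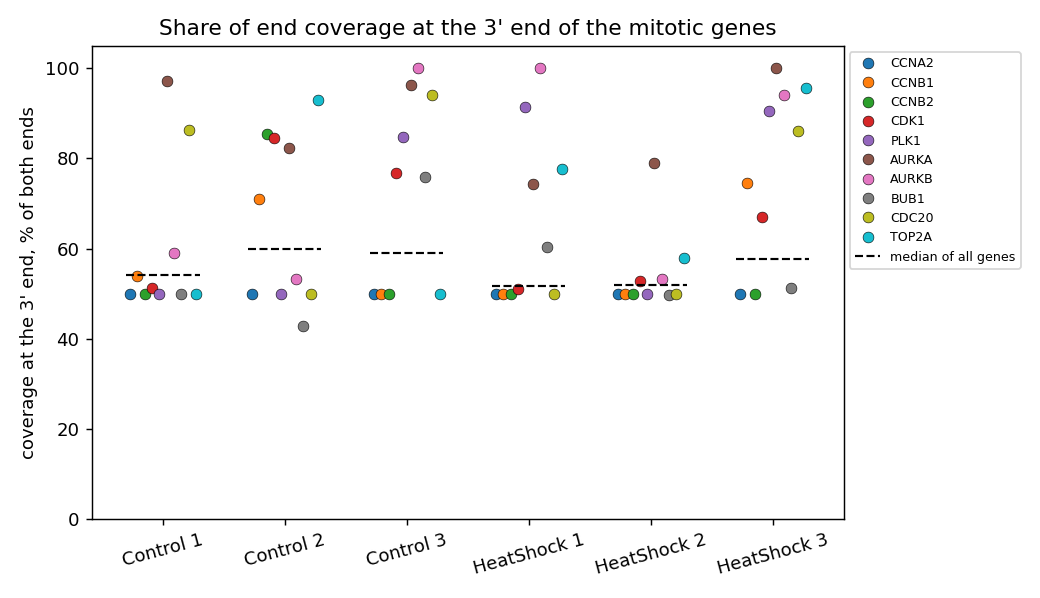
Share of the listed transcript density in the last 500 of the first and last 500 exonic bases, in percent, in each library. Points are the mitotic genes and the line is the median of all genes. A share of 50% is an even listed density and does not show even coverage by reads. The median of the mitotic genes is 76.3% in Control replicate 3 and 80.3% in HeatShock replicate 3, and near 50% in Control replicate 1 and HeatShock replicate 2.

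The lean to the 3′ end was measured as the share of the listed density in the last 500 exonic bases, out of the first and last 500 together, where 50% is even. Its median over the 10 genes was 50.6%, 62.1% and 76.3% in the Control libraries and 55.7%, 50.0% and 80.3% in the HeatShock libraries, beside 51.6% to 60.0% over all genes. AURKA stood at 97.3%, 82.4% and 96.4% against 74.3%, 79.1% and 100%. In HeatShock replicates 1 and 2 only annotated isoforms of AURKA were listed, and the ends were taken from the longest one, so 50% is not the even value for this gene. AURKB reached 100% in Control replicate 3 and HeatShock replicate 1. CCNA2 stood at 50% in all 6 libraries. Each listed transcript has a single density over its whole length, so a transcript that covers both ends in full counts as even wherever its reads lie. The share thus restates in part which libraries had short assembled pieces, and a value near 50% does not show even coverage by reads. It was high in 1 library of each group, and its part in the differences between libraries was not tested beyond the length-weighted level given next.

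A second level was therefore computed, chosen after the values had been seen. Each transcript's FPKM was multiplied by its length, summed over the gene and divided by the length of the longest annotated transcript, and each library was scaled by a common factor, the median ratio over 886 genes that passed 10 FPKM in every library. The factors ran from 0.439 to 2.34. Such scaling sets the middle of the abundant genes equal between libraries, so it shows change relative to those genes alone. Cufflinks divides by an effective length, so the weighting is approximate.

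On this level the 10 genes lay within a narrow band. CCNA2 held 11.4, 7.23 and 9.90 in the Control libraries and 11.1, 11.0 and 9.74 in the HeatShock libraries, in scaled FPKM. CCNB1 held 16.8, 15.0 and 13.7 against 15.1, 15.0 and 17.6, and CCNB2 held 12.1, 12.6 and 11.1 against 10.3, 12.8 and 12.7. The cyclins of HeatShock replicates 1 and 2, which had stood above every Control as deposited, now lay among or next to the Control values. CDK1 held 14.5, 12.3 and 14.0 scaled FPKM against 12.8, 15.2 and 14.0. PLK1 held 12.6, 12.3 and 13.3 against 12.6, 10.1 and 12.3, and AURKA 10.5, 14.0 and 10.7 against 11.2, 11.1 and 10.8. In each of these 3 kinases the groups overlapped, and PLK1 no longer peaked in HeatShock replicate 1. AURKB held 31.8, 31.1 and 44.6 scaled FPKM against 46.0, 31.8 and 39.9, and BUB1 6.28, 4.55 and 5.83 against 5.60, 5.48 and 5.77. CDC20 held 15.9, 12.7 and 19.8 against 13.1, 13.7 and 14.3, and TOP2A 10.3, 10.5 and 10.1 against 10.3, 11.1 and 10.2. BUB1 and TOP2A, the genes whose groups had not overlapped as deposited, overlapped here, as did the other 8.

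**Figure D3:**
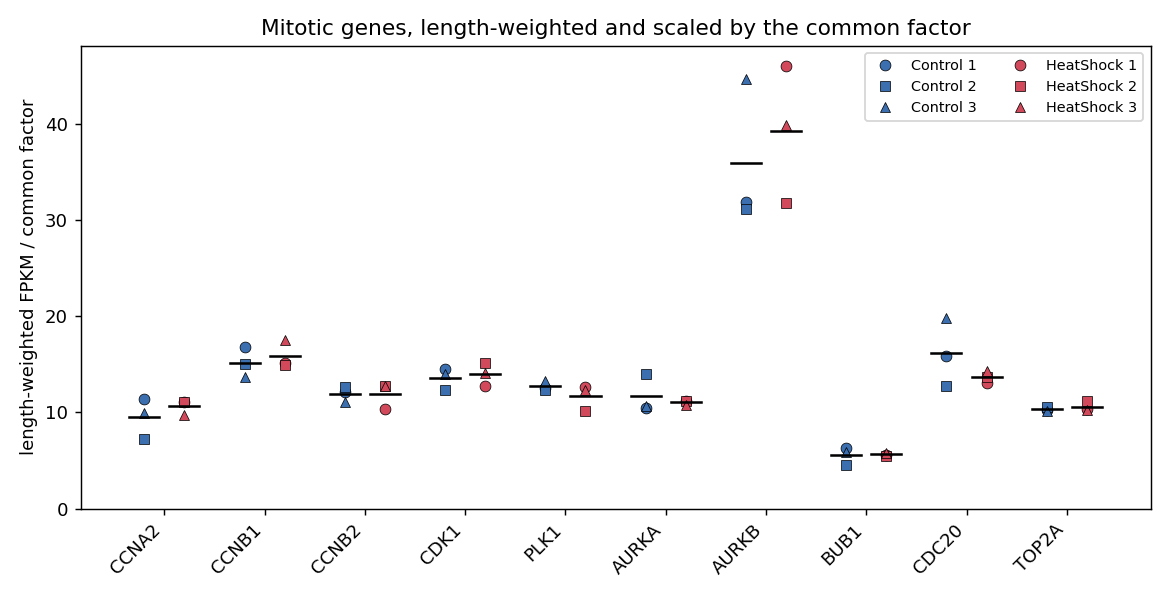
Length-weighted level of each mitotic gene, in FPKM scaled by the common factor, on a linear axis. Each library has 1 point, with a bar at the group mean. The libraries of both groups overlap for every gene, and the highest is 1.10 to 1.57 times the lowest.

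With this level the highest library of a gene was 1.10 to 1.57 times the lowest. The log2 differences ran from -0.20 in CDC20 (95% interval -0.63 to 0.22) to 0.16 in CCNA2 (-0.28 to 0.61). For CCNA2 the weighting counts assembled transcripts of 3857 to 4663 bases, which run past the annotated length of 2798. They were listed in Control replicate 1 and in every HeatShock library, but not in Control replicates 2 and 3. With the common factor and the plain sum, the CCNA2 difference was 0.052, and the part of these transcripts was not tested. TOP2A had the narrowest interval, 0.032 (-0.18 to 0.24), followed by CDK1 at 0.039 (-0.23 to 0.31), PLK1 at -0.12 (-0.40 to 0.16) and CCNB1 at 0.062 (-0.23 to 0.35). All 10 intervals included 0, and 10 of the 10 lay within a 2-fold change in either direction. Since the level was chosen with the spreads in view, the width of these intervals is a description and may be too narrow. The adjusted p-values from limma were 0.885 to 0.994, and 0 of the 10 genes passed an unadjusted p of 0.05, against 2.64% of 12300 genes. The groups did not overlap for 0 of the 10, against 1.51% of all genes with HeatShock higher and 5.64% with HeatShock lower. The median over the 10 was 0.028 beside -0.17 over all genes, 6 of the 10 lying above 0. The sum over the 10 genes was 142 ± 10.4 scaled FPKM (SD, n = 3) in Control and 144 ± 6.04 (SD, n = 3) in HeatShock. As deposited, the same sum had run from 72.6 to 495 FPKM.

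**Figure D4:**
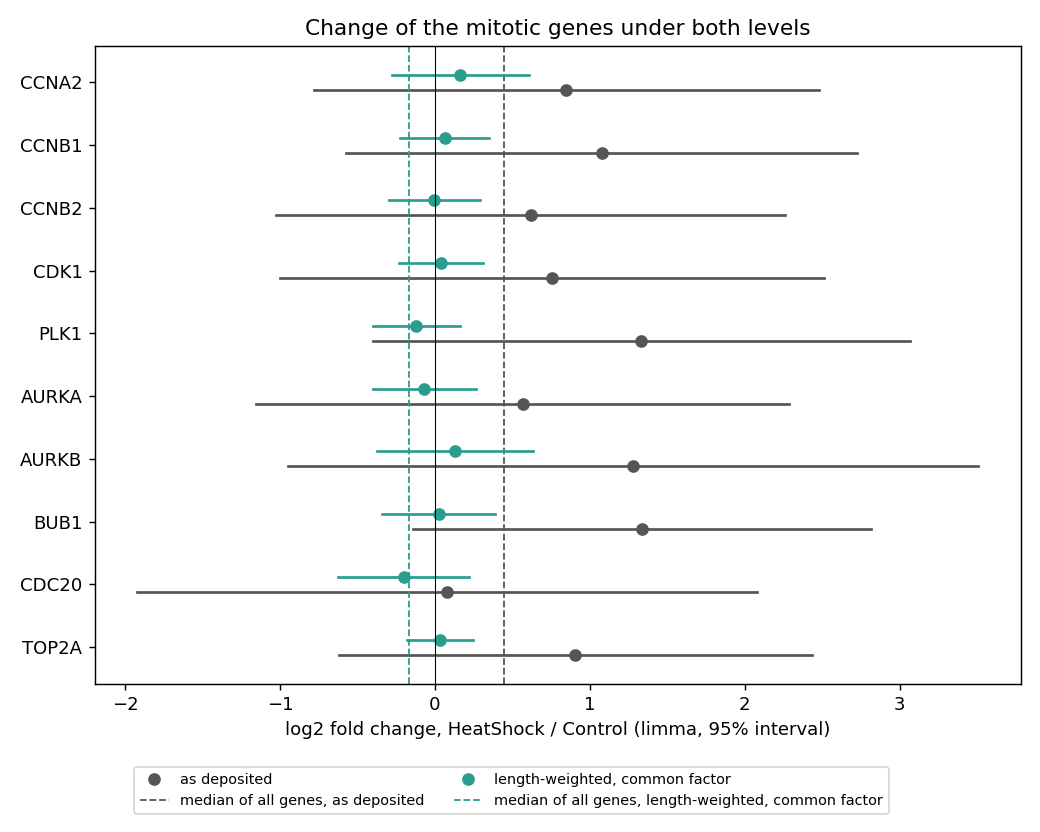
log2 difference between HeatShock and Control for each mitotic gene with its 95% interval from limma, as deposited (grey) and length-weighted with the common factor (green), with dashed lines at the median of all genes. As deposited the intervals reach from -1.92 to 3.51, and with the second level from -0.63 to 0.63. The second level was chosen after the values were seen.

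Either step alone did less. With the common factor and the plain sum, the differences ran from -0.74 to 0.59, 0 of the 10 passed an unadjusted p of 0.05 (3.22% of all genes did) and 4 of the 10 intervals lay within a 2-fold change. With the length weighting and no scaling, they ran from 0.62 to 0.98. The coefficient of variation over the 6 libraries, in its median over the 10 genes, was 63.3% as deposited, 39.6% with the common factor and 9.73% with both, beside 65.5%, 49.0% and 34.3% over all genes. Over genes in the same range of levels as the 10 the medians were 68.5%, 29.9% and 22.7%, so the 10 varied more than such genes with the common factor alone and less with both. These spreads are a description, since the level was chosen with them in view.

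The comparison was also made within the libraries that had many no-strand fragments (Control replicates 1 and 2, HeatShock replicate 3) and within those that had few (Control replicate 3, HeatShock replicates 1 and 2). As deposited, the median difference of the 10 genes was -0.0034 in the first set and 1.12 in the second, so the direction was not held within both, and the medians of all genes were -0.20 and 0.62. With the common factor alone the 10 genes had medians of 0.36 and -0.016, the opposite order, beside 0.081 and -0.26 over all genes. With the length-weighted level and the common factor the medians were 0.055 and 0.018, beside 0.059 and -0.22 over all genes. Each set holds a single library of 1 group, and no test is given. Of the no-strand fragments themselves, 3, 1 and 2 lay inside the 10 genes in the Control libraries and 5, 5 and 2 in the HeatShock libraries.

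The order of the genes was read from the length-weighted level, which is per length, in the Control libraries. AURKB was highest, at 35.9 ± 7.61 scaled FPKM (SD, n = 3), followed by CDC20 at 16.1 ± 3.58, CCNB1 at 15.2 ± 1.57, CDK1 at 13.6 ± 1.18 and PLK1 at 12.7 ± 0.504. Then came CCNB2 at 11.9 ± 0.754, AURKA at 11.7 ± 1.98, TOP2A at 10.3 ± 0.208, CCNA2 at 9.50 ± 2.09 and BUB1 at 5.55 ± 0.901. Only at the ends of this order were neighbours separated, AURKB from CDC20 and CCNA2 from BUB1, each the higher in 6 of 6 libraries. Between CDC20 and CCNA2 every gene overlapped the next in the Control libraries. CDC20 was above CCNB1 in 1 of 6 libraries, Control replicate 3, so its higher Control mean rests on that library.

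A gene's share of the 10-gene sum does not depend on scaling between libraries and was compared by a two-sided permutation test over all regroupings, an exact test that cannot go below p = 0.1 with 3 libraries against 3. As deposited, 1 of the 10 shares did not overlap between the groups. BUB1 made up 3.21% ± 0.532 (SD, n = 3) of the sum in Control and 4.79% ± 0.775 (SD, n = 3) in HeatShock (exact p = 0.1, adjusted over the 10 shares 0.833). With the length-weighted level the BUB1 shares were 3.89% and 3.90%. There the share of PLK1 did not overlap, at 8.93% in Control and 8.07% in HeatShock (exact p = 0.1, adjusted 1). AURKB, the most abundant of the 10, took 19.5% to 46.7% of the sum as deposited.

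Some neighbours limit these values. The 3′ end of CCNA2 lies opposite that of EXOSC9, a subunit of the RNA exosome, whose span ends at chr4:122738176 on the plus strand. Assembled CCNA2 transcripts ran 1588 bases past the annotated end in Control replicate 1, and 1865, 1598 and 989 bases past it in HeatShock replicates 1 to 3, into that span. PLK1 overlaps ERN2 on the opposite strand at its 3′ end. How the strand of reads was used is not given in the sources used here, so reads of such pairs cannot be told apart. The annotation also lists pseudogenes of AURKA, AURKB, BUB1, CCNB2 and CDC20, and how reads shared with them were divided cannot be seen in the values.

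The authors' comparison also gives 1 pooled FPKM for each group at each locus, with no spread. The pooled values of AURKB were 35.0 for Control and 166 for HeatShock, those of CCNB1 were 16.2 and 71.8, and those of TOP2A 10.5 and 47.7. The ratio of the pooled values lay between 4.06 (BUB1) and 4.75 (AURKB) for all 10 genes, with a median of 4.43. The pooled loci of CCNA2 (chr4:122722472-122745158) and PLK1 (chr16:23690201-23724821) were wider than those given above and took in the spans of EXOSC9 and ERN2. Whether those neighbours enter the pooled values was not tested. Over the 4181 named loci with a pooled Control value above 5, the median ratio was 4.32 and the middle 50% lay between 3.87 and 4.67, so the 10 genes stood with the bulk of loci. For 7 of the 10 genes the pooled HeatShock value was above the highest of the 3 HeatShock libraries, while the ratio of the library means was 0.874 to 3.01. The scaling behind the pooled values is not given in the sources used here.

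Other genes of the cell cycle were read as whole lists, in which no call is what the share of all genes called (0.023% as deposited, 0.0% of 12300 on the length-weighted level with the common factor) would leave in lists of this size. Of 17 tested genes of mitotic entry control, such as the phosphatase CDC25B and the phosphatase inhibitor ENSA, 0 were called, and the median was 0.70 as deposited and -0.048 with the length-weighted level and common factor. CDC25B held 416.5 FPKM in HeatShock replicate 1 and 90.7 FPKM in Control replicate 1 but at most 22.5 FPKM in the other 4 libraries. On the length-weighted level CDC25B ran from 4.78 to 12.1 scaled FPKM. For the anaphase-promoting complex, 0 of 16 were called, with medians of 0.68 and -0.12. UBE2S, one of its ubiquitin-conjugating enzymes, held 67.5, 69.9 and 78.9 scaled FPKM in the Control libraries and 82.1, 74.6 and 69.9 in the HeatShock libraries, and UBE2C, another, differed by -0.13 ± 0.106 (SE). Both enzymes overlapped between the groups on that level.

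Of the spindle checkpoint, 0 of 11 were called, with medians of 0.81 and 0.081. BUB3, the partner of BUB1, differed by 0.087 ± 0.172 (SE) on the length-weighted level and MAD2L2, a relative of MAD2, by 0.20 ± 0.292, and ZW10 alone passed an unadjusted p of 0.05 as deposited. Among 15 genes of the passenger complex and kinetochore, 0 were called, with medians of 0.57 and -0.027. BIRC5, the survivin subunit that works with AURKB, held 25.9, 28.1 and 12.5 scaled FPKM against 23.3, 22.9 and 31.5. SPC25 of the NDC80 complex differed by -0.49 ± 0.597 (SE), with the highest values in Control replicate 2 and HeatShock replicate 3. Neither had groups that were separate on that level.

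For 17 spindle motors and cytokinesis genes the medians were 0.46 and -0.078, for 18 genes of cohesin, condensin and separase 0.56 and -0.055, and for 11 interphase cyclins and kinases 0.59 and -0.10, with 0 called in each list on either level. PRC1, which bundles midzone microtubules, differed by 0.074 ± 0.109 (SE) on the length-weighted level, PTTG1, the securin, by -0.067 ± 0.128, and CDK4, the kinase of early G1, by 0.018 ± 0.0772. KIF22, NCAPG2 and CDKN2C, the other leading genes by mean FPKM, differed by -0.24 ± 0.420, -0.0070 ± 0.170 and -0.026 ± 0.131. The unadjusted p of 0.05 was passed by RAD21 as deposited and by KIF23 on the length-weighted level, which like ZW10 are named after their values were seen. On the second level the medians of these lists lay on both sides of 0, and single genes ran from -1.43 (SPC24) to 1.62 (ANAPC2), both named after their values were seen.

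**Figure D5:**
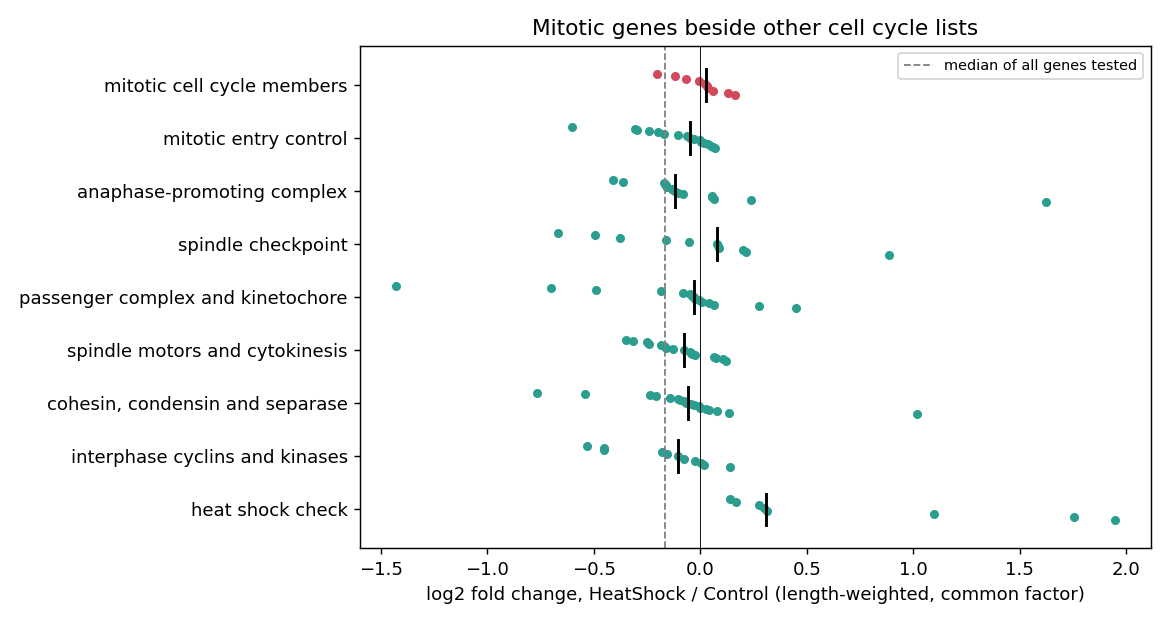
log2 difference between HeatShock and Control on the length-weighted level with the common factor, with 1 point for each gene, a bar at the median of each list and a dashed line at the median of all genes (-0.17). The medians of the cell cycle lists lie between -0.12 and 0.081, and all 8 heat shock genes lie above 0, with a median of 0.31.

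The same fit was read for heat shock genes as a check of what it could show. All 8 had a higher HeatShock mean on either level, with medians of 1.18 as deposited and 0.31 on the length-weighted level. An unadjusted p of 0.05 was passed by 3 and 5 of the 8, against 3.69% and 2.64% of all genes in either direction. As deposited the 3 were DNAJB1 and the near-identical HSP70 genes HSPA1A and HSPA1B, and HSPH1 and HSPA8 joined them on the length-weighted level. DNAJB1 differed by 3.33 ± 0.834 (SE) as deposited and by 1.95 ± 0.261 on the length-weighted level, where limma gave adjusted p-values of 0.710 and 0.582. HSPH1, the HSP110 chaperone, differed by 1.16 ± 0.762 and 0.30 ± 0.0970. On the length-weighted level DNAJB1 held 11.2, 13.1 and 10.2 scaled FPKM in the Control libraries and 41.4, 36.0 and 68.7 in the HeatShock libraries. HSPH1 held 10.4, 9.98 and 9.32 against 12.3, 11.6 and 13.5. None of the 8 was called, so that a difference as large as that of DNAJB1 did not pass adjustment with 3 libraries a group.

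The genes most like the 10 were sought by the root mean square difference between centred log2(FPKM + 1) profiles over the 6 libraries as deposited. The nearest to the mean mitotic profile were OXSR1 (0.0587), ALDH3A2 (0.0602), LARP6 (0.0721), ARL14EP (0.0722) and MT2A (0.0725). The 10 genes themselves lay at 0.208 (CCNA2) to 0.656 (AURKB) from their own mean, beside a median of 0.556 over all genes, and 24.8% of all genes were closer to it than the median mitotic gene. OXSR1, for example, held 3.57, 1.30 and 4.69 FPKM in the Control libraries and 9.05, 8.43 and 2.51 FPKM in the HeatShock libraries. AURKB and CDC20, at 0.656 and 0.645, lay farther from the mean mitotic profile than the median gene did. Each of the 10 enters the mean it is measured against, which brings it closer than a gene outside the 10. The profiles were not scaled between libraries, so likeness here also reflects the scale of each library.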

How the data were processed

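RNA of 3 Control and 3 HeatShock samples of HEK293 was sequenced with the Truseq kit after RiboMinus depletion. Per the labels, the authors used FastQC 0.10.1, Trimmomatic 0.3.0, TopHat2, Cufflinks 2.0.2 and Cuffdiff, with hg19. The deposited values are Cufflinks FPKM for each transcript of each library, held as text among other attributes, with no read counts. The depth in reads is therefore unknown. A deposited table of the group comparison gives 1 pooled FPKM a group, used as the authors' value. Its fold changes, p-values and q-values, the authors' own results, were not used.

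FPKM was summed by gene over annotated transcripts, 96.5% of the 43536 of which were named through their accession, and over the assembled transcripts grouped with that gene. The 13027 genes whose mean reached 1 FPKM entered a limma fit (version 3.58.1, R 4.3.3; lmFit, eBayes with a trend) on log2(FPKM + 1), with Benjamini-Hochberg adjustment. The code was first tested on simulated data. Shares were compared by exact permutation tests. Alternatives covered the pseudocount, scaling, minimum FPKM, trend, replicate block, annotated transcripts alone, a no-strand term and each library left out. The length-weighted level, and the common factor without HeatShock replicate 3, were added after the values were seen.

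The 10 genes, the lists and the common factor were chosen with earlier results of these data known. The genes named are the 10 members, the 2 of each list with the highest mean FPKM and any called, HSPH1 and DNAJB1, and the 5 genes of most similar profile; other names say so. Promoters came from RefSeq (GRCh38.p14) and were searched for CCAAT boxes and both CHR spellings on both strands.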

Additional observations from a re-analysis of the deposited data

How the results depend on the processing

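No mitotic gene was called under any alternative run, with 9 of the 10 tested at a minimum of 10 FPKM (BUB1 was below it). The median difference over the 10, 0.88, was 0.50 with a no-strand term, 0.47 with median-of-ratios scaling, 0.20 after rescaling to TPM, 0.068 with the common factor, 0.028 with the length-weighted level and common factor and -0.090 with the common factor without HeatShock replicate 3. Leaving out 1 library gave 0.57 to 1.43. The count at an unadjusted p under 0.05 was 1 with median-of-ratios scaling (BUB1), where 250 of all 13027 genes passed it as higher and 274 as lower. It was 0 to 7 with 1 library left out. The 7 were found without HeatShock replicate 3, where 39.5% of all genes were higher at that threshold. The number of shares that did not overlap was 0 with annotated transcripts alone and 1 to 4 with 1 library left out, being 2 without Control replicate 2 or HeatShock replicate 1, 3 without Control replicate 3 and 4 without HeatShock replicate 2; 2 libraries against 3 separate more easily than 3 against 3, so these counts are not comparable with the 1 of 10.

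Over all genes, 2 were called higher and 1 lower. These counts were 1 and 0 with median-of-ratios scaling, without the trend and with annotated transcripts alone, 4 and 0 at a minimum of 10 FPKM, and 0 and 0 with the common factor (also without HeatShock replicate 3), with no minimum and with the length-weighted level and common factor. With 1 library left out they were 0 to 9 and 0 to 1: 0 and 0 without any 1 Control replicate, 1 and 0 without HeatShock replicate 1, 2 and 0 without HeatShock replicate 2 and 9 and 1 without HeatShock replicate 3.

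Of the results for single genes, 171 kept their direction and 28 reversed. Some of these could not reverse, since changing the minimum FPKM, the trend or the replicate block left each difference as it was. The block with the common factor likewise repeated the differences of the common factor, so the tally does not measure robustness. With the common factor, with or without the replicate block, CCNB2 was at -0.22, CDK1 at -0.073, AURKA at -0.26 and CDC20 at -0.74. Without HeatShock replicate 3 and with the common factor, CCNB1 was at -0.074, CCNB2 -0.27, CDK1 -0.11, AURKA -0.47, CDC20 -0.92 and TOP2A -0.30. Rescaled to TPM, CCNB2 was at -0.10, AURKA -0.15 and CDC20 -0.63. On the length-weighted level with the common factor, CCNB2 was at -0.0037, PLK1 -0.12, AURKA -0.069 and CDC20 -0.20. With annotated transcripts alone, AURKB was at -0.19 and TOP2A at -0.64. CDC20 was at -0.33 with median-of-ratios scaling, at -0.47 with a no-strand term, and between -0.77 and 0.68 with 1 library left out, below 0 without Control replicate 2, HeatShock replicate 1 or HeatShock replicate 2. The cause of these reversals was not tested.

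As deposited, no pairing of the samples by replicate number was seen. Deviations of same-numbered libraries from their group means correlated at 0.027, -0.326 and -0.378, and 1 of 6 libraries correlated best with its own number. The deviations were not scaled between libraries, and differences of scale could hide a pairing, so this check cannot settle whether the samples were paired. The replicate block gave 12 genes higher and 5 lower (0 and 0 with the common factor), 0 of the 10 mitotic genes among them, and their median was 0.88, or 0.068 with the common factor. Under the block 1 share, that of BUB1, kept 1 direction in all pairs. An exact permutation test within pairs gave it p = 0.25, the lowest that test can reach here, and 0.833 after adjustment over the 10 shares.

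The files hold no reads, and depth and 3′ coverage were read only through what Cufflinks listed. With the values as deposited, no interval of a mitotic gene lay within a 2-fold change either way.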
